A study of Mus musculus with 6 samples.

Results

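The calcium/calmodulin-dependent protein kinases and the related pseudokinase Camkv were described here in mouse hippocampus after hippocampal injection of an shRNA vector against the long isoform of hnRNP DL (L-DL). The members were 10 genes taken by symbol from the 52550 gene rows of the count table, namely Camk2a, Camk2b, Camk2d, Camk2g, Camkv, Camkk1, Camkk2, Camk1d, Camk1g and Camk4, together with all 76 of their splicing events among 40961 listed events. RNA came from male C57BL/6 J mice injected with adeno-associated virus (AAV) into the CA1 areas at 8 weeks of age, 3 libraries with control shRNA and 3 with L-DL shRNA. The sample labels call the first group wild type, and its virus was given at a higher titre than the L-DL shRNA virus. The L-DL shRNAs were placed in tandem behind H1 promoters, and a CamkIIα promoter in the same vector drove the fluorescent marker zsGreen, so that the marker, but not the shRNA, depended on a promoter of excitatory neurons. All values come from whole hippocampal tissue, in which fewer cells of a type and less RNA per cell cannot be told apart.

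CaMKII is a multimeric kinase that is switched on by calcium-bound calmodulin and, in hippocampal neurons, is needed for long-term potentiation and spatial memory. Its alpha and beta subunits, from Camk2a and Camk2b, dominate in forebrain neurons, while the gamma and delta subunits, from Camk2g and Camk2d, occur in most tissues. A second cascade starts with the CaMK kinases Camkk1 and Camkk2, which phosphorylate CaMKI enzymes such as those from Camk1d and Camk1g, and CaMKIV from Camk4, a nuclear kinase that acts on CREB. Camkv resembles these kinases and binds calmodulin but lacks catalytic activity, and it is required for the maintenance of dendritic spines.

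Hnrnpdl (ENSMUSG00000029328), the targeted gene, was not lower after L-DL shRNA. Its level in CPM, the read count scaled to library size with TMM factors, was 176, 184 and 171 in the 3 controls. It was 217 CPM in L-DL KD replicate 1, 150 CPM in replicate 2 and 173 CPM in replicate 3 (log2 fold change 0.03, SE 0.12, adjusted p = 0.898 in the edgeR quasi-likelihood fit). This count adds the long and the short isoform, so it does not measure L-DL alone, and the group is called by its label, as knockdown-labelled, throughout. Gene counts summed to between 16052529 and 17913064 per library. Genes of neurons were lower and those of microglia higher in the knockdown-labelled libraries. Of 12 pan-neuronal markers 11 fell and 1 (Nefl) rose, with a median log2 fold change of -0.52, and their summed level ranged from 6395 to 6850 CPM in controls and from 4101 to 5022 CPM in the knockdown-labelled libraries. All 12 microglial markers rose (median 0.96, summed level from 1974 to 2486 CPM against 3857 to 5043 CPM). Of 6 markers of CA1 pyramidal neurons 4 fell (median -0.89), and of 7 markers of inhibitory neurons 5 fell (median -1.16). Over all 17621 genes tested, 15.0% fell and 15.6% rose. Among the other lists, 1 of 5 dentate granule markers rose and 1 fell, 2 of 9 astrocyte markers rose and 4 fell, 2 of 8 oligodendrocyte markers rose and 4 of 6 endothelial markers rose. Every defining marker was detected, the lowest group mean being 2.8 CPM for the CA1 list. The part of these shifts in the differences of the kinase genes was not tested, except where values relative to the neuronal list are given.

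Of the 10 genes, 6 were lower in the knockdown-labelled libraries at an adjusted p under 0.05 and none was higher, against 15.0% of 17621 genes tested that were lower and 15.6% that were higher (30.5% in either direction). The same 6 genes had groups that did not overlap, against 23.4% of all genes tested that were lower in this way. All 10 passed the filter on low counts. Their median log2 fold change was -0.50, and that of all genes tested was 0.01.

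Camk2a (ENSMUSG00000024617, chr18:60925618-60988152, GRCm38), the alpha subunit, had the highest level of the members. It was at 4130, 3959 and 3904 CPM in the controls and at 2441, 2444 and 2332 CPM in the knockdown-labelled libraries. Each of the latter lay far below each control, at 60.2% of the control mean (log2 fold change -0.73, SE 0.07, adjusted p = 0.000324). Camk2b (ENSMUSG00000057897, chr11:5969644-6066362), whose beta subunit binds actin in spines, fell less, from 1191, 1239 and 1204 CPM to 993, 994 and 956 CPM (log2 fold change -0.30, SE 0.06, adjusted p = 0.00957). The groups of Camk2b did not overlap, but without control replicate 2 its call was lost (log2 fold change -0.29, adjusted p = 0.0528). Camk2g (ENSMUSG00000021820, chr14:20734875-20794088) was at 148, 154 and 155 CPM in the controls and at 153, 143 and 139 CPM in the knockdown-labelled libraries, and the groups overlapped (log2 fold change -0.07, adjusted p = 0.443). Camk2d (ENSMUSG00000053819, chr3:126596302-126846326) was at 48.9, 49.0 and 36.4 CPM in the controls and at 45.6, 57.9 and 57.1 CPM in the knockdown-labelled libraries. Its groups overlapped through control replicates 1 and 2 and L-DL KD replicate 1 (log2 fold change 0.26, SE 0.14, adjusted p = 0.204). Without L-DL KD replicate 1 the log2 fold change of Camk2d was 0.36 and passed the test narrowly (adjusted p = 0.0498), and without control replicate 3 it was 0.13 (adjusted p = 0.503).

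Within the CaMKII genes, the share of Camk2a was lower and that of the other 3 genes higher in every library labelled L-DL KD. For this comparison the level of each gene was divided by its exon length and expressed as a share of the sum over the 4 CaMKII genes in that library. Camk2a made up 78.0%, 76.6% and 76.8% in the controls and 70.8%, 71.0% and 70.8% in the knockdown-labelled libraries, a difference of -6.29 percentage points. The share of Camk2b was 19.1% ± 0.642 in the controls and 23.6% ± 0.0901 in the other group (SD, n = 3). Camk2g went from 3.44% ± 0.147 to 4.98% ± 0.181 (SD, n = 3), and Camk2d from 0.286% ± 0.042 to 0.524% ± 0.074 (SD, n = 3). Without division by exon length the mean Camk2d share was 0.827% in the controls and 1.495% in the other group. In each of the 4 genes the 3 shares of one group lay apart from those of the other, and the two-sided exact permutation p was 0.1, the smallest that 3 against 3 libraries can give. Shares of a sum are not independent, and a lower Camk2a raises the shares of the rest.

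**Figure D1:**
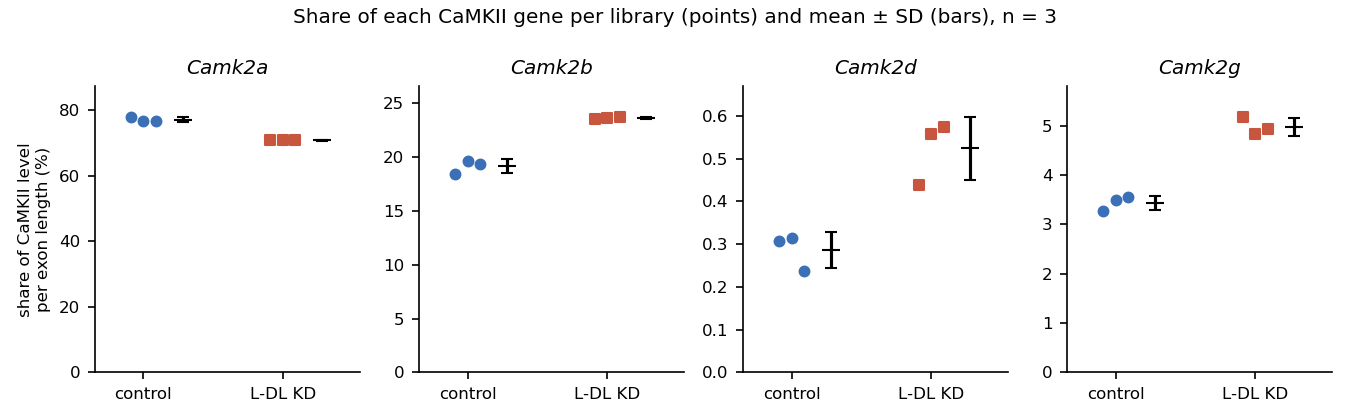
Share of each CaMKII gene in the summed level of the 4 genes per exon length (y axis, percent, starting at 0 with its own scale in each panel) in the 3 control libraries (circles) and the 3 knockdown-labelled libraries (squares), with mean ± SD beside them. Camk2a is lower in all 3 L-DL KD libraries, near 70.9%, while Camk2b, Camk2d and Camk2g are higher in all 3.

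The kinases upstream of CaMKI and CaMKIV were lower as well. Camkk1 (ENSMUSG00000020785, chr11:73019008-73042073) was at 216, 224 and 203 CPM in the controls and at 108, 145 and 137 CPM in the knockdown-labelled libraries (log2 fold change -0.72, SE 0.11, adjusted p = 0.00243). Camkk2 (ENSMUSG00000029471, chr5:122731170-122779409), which also activates the energy sensor AMPK, went from 127, 124 and 120 CPM to 82.8, 74.2 and 72.4 CPM (log2 fold change -0.70, SE 0.07, adjusted p = 0.000504). Both genes stood at about the same part of their control mean, 60.7% for Camkk1 and 61.7% for Camkk2, with no overlap between the groups.

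Of the targets of these kinases, Camk1d changed most among the 10 genes. Camk1d (ENSMUSG00000039145, chr2:5293457-5714515), a CaMKI enzyme, was at 217, 214 and 223 CPM in the controls and at 90.1, 87.1 and 81.8 CPM in the knockdown-labelled libraries. This was 39.6% of the control mean with little spread in either group (log2 fold change -1.34, SE 0.07, adjusted p = 7.26e-05). Camk1g (ENSMUSG00000016179, chr1:193346346-193370298), a membrane-anchored CaMKI enzyme, fell from 22.6, 21.2 and 21.3 CPM to 11.8, 14.8 and 11.6 CPM (log2 fold change -0.77, SE 0.13, adjusted p = 0.0037). Camk4 (ENSMUSG00000038128, chr18:32934931-33191228) did not fall as a group, with 78.8, 78.0 and 87.2 CPM in the controls and 66.2, 102 and 122 CPM in the knockdown-labelled libraries. L-DL KD replicate 1 lay below every control and replicates 2 and 3 above every control, so the group mean had a wide spread (96.9 ± 28.5 CPM, SD, n = 3, log2 fold change 0.25, adjusted p = 0.362). Without L-DL KD replicate 1 the log2 fold change of Camk4 was 0.47 (adjusted p = 0.00534), and without replicate 3 it was 0.05 (adjusted p = 0.85). Exons of Camk4 overlap those of the antisense gene 2310026I22Rik, and strand use in counting was not stated. The antisense gene itself had between 0 and 5 counts per library.

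**Figure D2:**
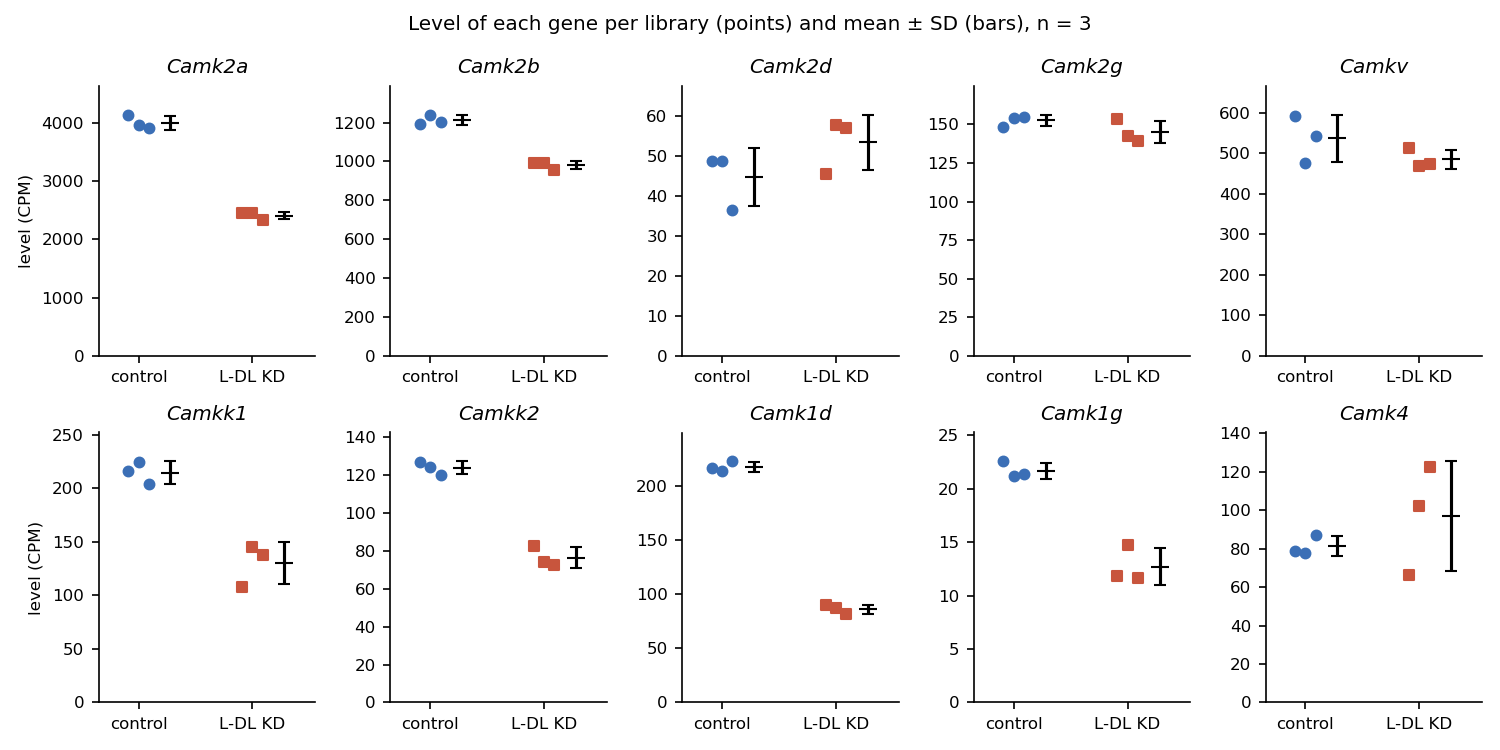
Level of the 10 genes in CPM (y axis, starting at 0 with its own scale in each panel) in the 3 control libraries (circles) and the 3 knockdown-labelled libraries (squares), with mean ± SD beside them. Camk2a, Camk2b, Camkk1, Camkk2, Camk1d and Camk1g are lower in all 3 L-DL KD libraries, and Camk4 spreads from 66.2 to 122 CPM in that group.

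The order of the levels was compared per kilobase of exon. In the controls Camk2a stood at 536 ± 15.8 CPM per kb (SD, n = 3), followed by Camkv at 143 ± 15.3 and Camk2b at 133 ± 2.72, 2 neighbours that did not differ beyond their spread. Camkk1 had 57.5 ± 2.8 CPM per kb, Camk1d 29.4 ± 0.619, Camk4 24.9 ± 1.57 and Camk2g 23.8 ± 0.561, the last pair again within their spread. Camkk2 (11.3 ± 0.311), Camk1g (7.86 ± 0.273) and Camk2d (1.99 ± 0.321) came last, Camk2d with the longest exon length of the members, 22493 nt. In the knockdown-labelled libraries, Camk1d stood at 11.6 ± 0.566 CPM per kb (SD, n = 3), below Camk2g at 22.7 ± 1.14, while the other genes kept their order apart from Camk4 with its spread.

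The levels were next set beside those of the neuronal markers, against which Camk1d had the most negative difference. Relative to the mean log2 level of the 12 pan-neuronal markers, Camk1d was at -0.86 ± 0.05 in the controls and -1.64 ± 0.08 in the knockdown-labelled libraries (log2 scale, SD, n = 3), a difference of -0.79. The differences of Camk2a (-0.18), Camkk1 (-0.18), Camkk2 (-0.15) and Camk1g (-0.23) were small on this scale, and the groups of Camkk1 overlapped. Camk2b (0.25), Camkv (0.41), Camk2g (0.48), Camk4 (0.76) and Camk2d (0.81) were higher relative to the list, with groups that did not overlap, as for the lower genes other than Camkk1. The two-sided exact permutation p was 0.1 for each gene but Camkk1 (p = 0.5), and 0.1 is the smallest possible. The choice of the neuronal list matters for the sign. Against the 6 CA1 markers, Camk2a (0.15), Camkk1 (0.15), Camkk2 (0.18) and Camk1g (0.10) turned positive. The exact permutation p was 0.4 for Camk2a, Camkk1 and Camkk2 and 0.1 for Camk1g. Against the median level of the pan-neuronal list Camk2b (-0.18, exact permutation p = 0.2) and Camkv (-0.02, p = 0.9) turned negative. There Camk2a (-0.61), Camkk1 (-0.60), Camkk2 (-0.57) and Camk1g (-0.65) were further below 0. Camk1d was lower under all 3 choices, by -0.46 against the CA1 markers and -1.21 against the median. Camk2d, Camk2g and Camk4 had positive differences under all 3, of 1.14, 0.81 and 1.09 against the CA1 markers. Against the median these were smaller and their groups were not fully apart, at 0.39 for Camk2d (exact permutation p = 0.2), 0.05 for Camk2g (p = 0.5) and 0.34 for Camk4 (p = 0.4).

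**Figure D3:**
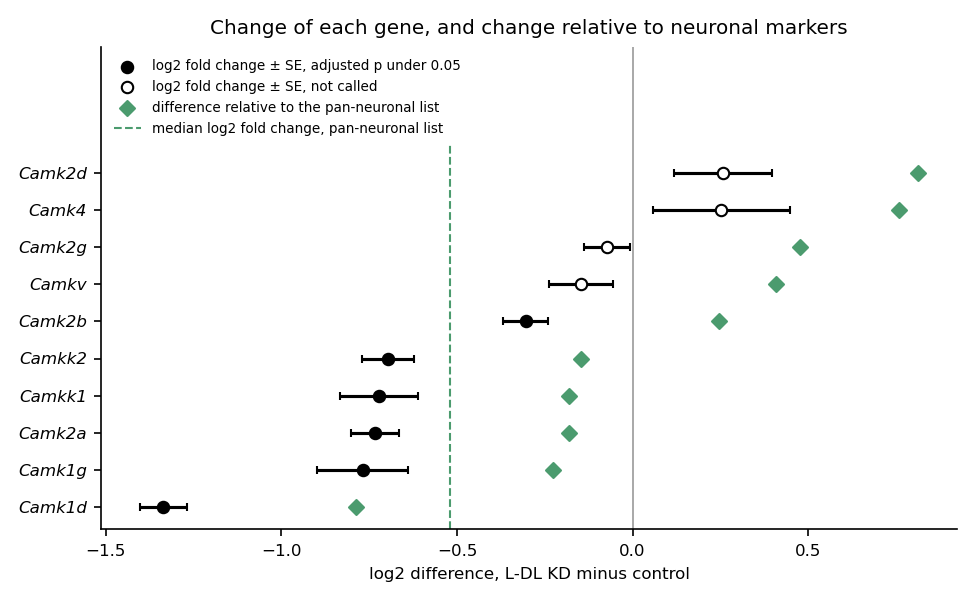
Log2 difference between the knockdown-labelled libraries and the controls (x axis) for the 10 genes (y axis), with circles for the log2 fold change ± SE (filled where the adjusted p is under 0.05) and diamonds for the difference relative to the mean of 12 pan-neuronal markers. The dashed line marks the median log2 fold change of those markers, -0.52, and Camk1d at -1.34 lies furthest below it.

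Splicing was described by the share of transcripts that include a segment (percent spliced in, PSI, given from 0 to 1), computed in each library from the junction counts and the lengths of both forms. The splicing table does not number its replicates, so its 3 control and 3 L-DL KD columns cannot be matched to the numbered libraries above. Of the 76 events of the 10 genes, 53 were skipped exons, 10 mutually exclusive exons, 5 retained introns, 5 alternative 5′ splice sites and 3 alternative 3′ splice sites. There were 47 events with enough counts for the test. Of these, 2 passed an adjusted p of 0.05, an exon of Camk2a and intron 4 of Camkv, against 0.255% of 18829 events tested in all. An unadjusted p under 0.05 was reached by 8 of the 47 events, against 13.3% of all. The groups did not overlap in 10 of the 47, against 18.4%, and in 7 of these PSI also differed by at least 0.1, against 8.27%. Neither call held under every setting. limma on the log2 ratio of the forms called 0 of the 47 events, with 8 at an unadjusted p under 0.05, and 0 calls were left without any 1 of the 3 control columns or without the second L-DL KD column. Without the third L-DL KD column only the Camk2a exon kept its call, and without the first both did. Events of a gene share junctions and reads, so they are not independent of each other.

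The alternative exons of the CaMKII genes lie mostly in the variable linker between the regulatory segment and the domain through which subunits assemble. Among them is a 33 nt exon that Camk2a, Camk2g and Camk2d share, known from CaMKII variants with a nuclear localization signal. The Camk2g and Camk2d exons matched each other in 26 of 33 positions and are shown to make the likeness visible, from chr14:20747819-20747851 (minus strand, exon 14 of Camk2g-201) and chr3:126802937-126802969 (plus strand, exon 14 of Camk2d-205).
Camk2g 33 nt exon: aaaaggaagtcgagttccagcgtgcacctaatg
Camk2d 33 nt exon: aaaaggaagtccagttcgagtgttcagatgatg

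Inclusion of the 33 nt exon rose in Camk2a, where it is exon 14 of Camk2a-201 (chr18:60969011-60969043, GRCm38, coding) and matches the Camk2g and the Camk2d exon in 28 of 33 positions each. Its PSI was 0.0314, 0.0303 and 0.033 in the 3 control columns and 0.0855, 0.113 and 0.0772 in the L-DL KD columns. The exon was thus rare in every library, and each L-DL KD value was more than the highest control (difference 0.0603, log2 change in the odds of inclusion 1.62, SE 0.24, adjusted p = 0.0185 in the edgeR fit). The inclusion counts were 125, 121 and 136 in the controls and 231, 309 and 180 in the L-DL KD columns, against between 1770 and 3285 skipping counts per library. Under limma the adjusted p was 0.184, and it ranged from 0.0184 to 0.184 over all alternatives. The log2 odds change was 1.613 under limma and between 1.441 and 1.745 with any column left out. In Camk2g the counterpart was common and its PSI lower but with overlap, at 0.776, 0.797 and 0.625 in the controls and 0.68, 0.551 and 0.397 in the L-DL KD columns, with the downstream 69 nt exon skipped in both forms (difference -0.19, adjusted p = 0.363). That event was set beside Camk2a after its values were seen. The Camk2d counterpart had 0 inclusion counts in the control columns and 1 inclusion count in all L-DL KD columns together. In the column that held it, this gave a PSI of 0.0188 against skipping of the exon (43 counts) and of 0.103 against the 60 nt exon in its place (10 counts), and neither event had enough counts for the test.

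**Figure D4:**
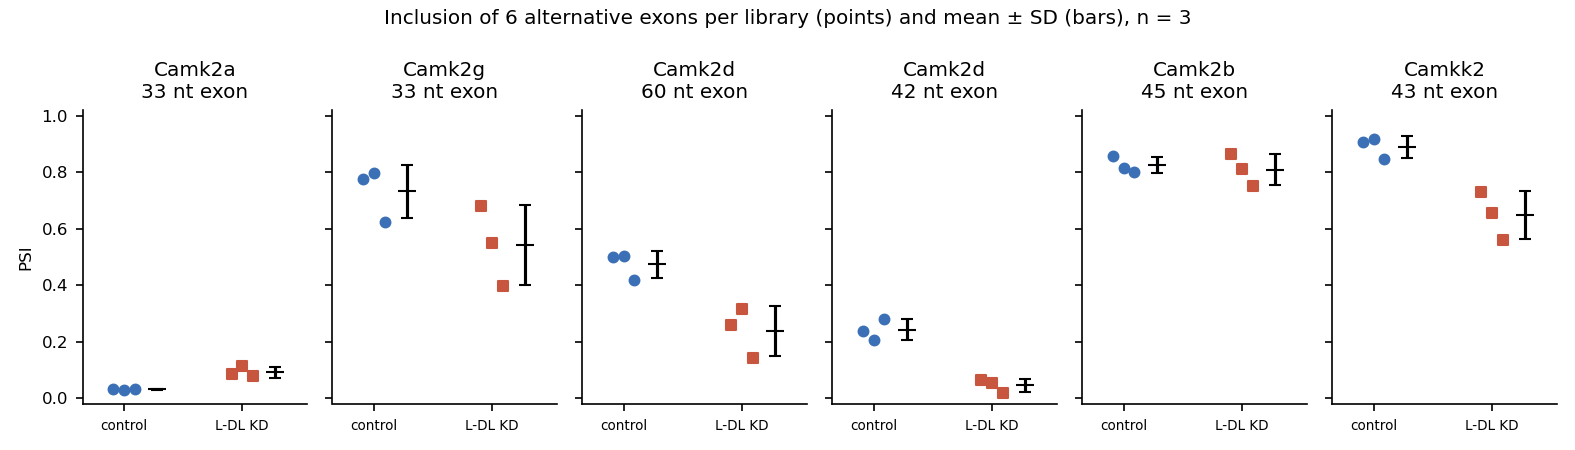
PSI (y axis, 0 to 1) of 6 alternative exons in the 3 control columns (circles) and the 3 L-DL KD columns (squares), with mean ± SD beside them. The Camk2a exon rises from near 0.03 to between 0.0772 and 0.113. The exons of Camk2d (each set against a form that skips both) and of Camkk2 are lower in every L-DL KD column, and those of Camk2g and Camk2b overlap.

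In Camk2d the linker exons of 60 nt and 42 nt, each set against a form that skips both, had a lower PSI in every L-DL KD column. This was at low counts and short of the threshold. The inclusion counts of either exon also hold junctions of transcripts that carry both. Both exons are shown with a 45 nt exon of Camk2b, whose start resembles the 42 nt exon in 24 of the first 30 positions. The 60 nt exon lies at chr3:126805857-126805916 (exon 14 of Camk2d-203), the 42 nt exon at chr3:126808208-126808249 (exon 14 of Camk2d-202), both on the plus strand, and the Camk2b exon at chr11:5981070-5981114 on the minus strand (exon 16 of Camk2b-202). All 3 are coding and multiples of 3 nt.
Camk2d 60 nt exon: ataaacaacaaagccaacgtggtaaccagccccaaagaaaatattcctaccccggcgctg
Camk2d 42 nt exon: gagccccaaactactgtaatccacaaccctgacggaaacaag
Camk2b 45 nt exon: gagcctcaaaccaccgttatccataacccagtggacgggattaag

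The 42 nt exon of Camk2d, set against a form that skips both exons, had a PSI of 0.239, 0.207 and 0.282 in the controls. In the L-DL KD columns its PSI was 0.063, 0.0555 and 0.0179. This rested on 6, 4 and 6 inclusion counts against 3, 3 and 1 (difference -0.197, log2 odds change -2.74, SE 0.86, unadjusted p = 0.00803 and adjusted p = 0.216 from edgeR). The skipping counts, shared by the 60 nt exon, were 15, 12 and 12 in the controls and 35, 40 and 43 in the L-DL KD columns. The 60 nt exon, set against the same skipping form, had a PSI of 0.501, 0.504 and 0.417 in the controls. In the L-DL KD columns its PSI was 0.258, 0.318 and 0.143 (difference -0.234, adjusted p = 0.353). Its inclusion counts were 21, 17 and 12 in the controls and 17, 26 and 10 in the L-DL KD columns. Where the 42 nt exon followed, the 60 nt exon was not lower, with a PSI of 1.0, 1.0 and 0.883 in the controls and 1.0 in each L-DL KD column. That event had too few skipping counts for the test, 0, 0 and 2 in the controls and 0 in each L-DL KD column. The 42 nt exon was thus hardly seen without the 60 nt exon. Its inclusion counts above came almost all from its downstream junction, which transcripts with both exons share. The other 2 events with apart groups reuse these exons: the 42 nt exon where the 60 nt exon was included (mean PSI 0.798 in controls and 0.59 in L-DL KD columns, adjusted p = 0.478) and the 60 nt against the 42 nt exon (0.734 and 0.876, adjusted p = 0.602). None of the 4 passed the adjusted threshold. The Camk2b exon, with a mean of 1293 junction counts per library, had a PSI of 0.826 ± 0.0289 in the controls and 0.81 ± 0.0556 in the L-DL KD columns (SD, n = 3, adjusted p = 0.912). It was chosen for its sequence after its values were seen.

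In Camk2g the event with the smallest p was a 63 nt exon (exon 5 of Camk2g-204, chr14:20757666-20757728), with a PSI of 0.472, 0.533 and 0.383 in the controls and 0.412, 0.247 and 0.168 in the L-DL KD columns. One L-DL KD value lay among the controls (adjusted p = 0.309). The 33 nt exon used in place of the 69 nt exon had a PSI of 0.665, 0.608 and 0.57 in the controls and 0.515, 0.542 and 0.377 in the L-DL KD columns, without overlap but short of the threshold (adjusted p = 0.414). In Camk2b none of 9 tested events differed by more than 0.0264 in PSI. Its event with the smallest p was the 75 nt exon 13 of Camk2b-202, with a PSI of 0.998 ± 0.00123 and 0.9997 ± 0.000516 (SD, n = 3, adjusted p = 0.396).

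Camkk2 showed the largest PSI difference of all tested events of the 10 genes. The segment is the 43 nt exon 16 of Camkk2-201 (chr5:122736988-122737030, minus strand), a coding exon whose length is not a multiple of 3, so that its skipping changes the reading frame of what follows.
Camkk2 43 nt exon: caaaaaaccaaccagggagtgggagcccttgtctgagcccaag

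Its PSI was 0.906, 0.92 and 0.847 in the controls and 0.731, 0.657 and 0.56 in the L-DL KD columns. Every L-DL KD value lay below every control, a difference of -0.242 (log2 odds change -2.10, SE 0.52, unadjusted p = 0.00159). With 50 to 161 junction counts per library it did not pass the adjusted threshold (adjusted p = 0.124, and from 0.11 to 0.352 over the alternatives). In the other genes of the CaMKK cascade the event with the smallest p differed little. In Camkk1 it was exons 13 and 14 of Camkk1-201, listed as mutually exclusive (difference 0.0296, adjusted p = 0.867). In Camk1d it was exons 2 and 3 of Camk1d-201, listed likewise (0.0351, adjusted p = 0.921). Read as a skipped exon, exon 13 of Camkk1-201 had a mean PSI of 0.997 in controls and 1.0 in L-DL KD columns. Exon 3 of Camk1d-201 had 1.0 and 0.985. The listed pairs thus do not measure a choice between exons. The remaining events were a rarely used 88 nt exon of Camk1g (-0.0297, adjusted p = 0.697) and exon 2 of Camk4-201 (-0.0636, adjusted p = 0.698). Camk1d, whose level fell most, had 1 testable event, its listed pair, and no detected difference in it.

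Camkv (ENSMUSG00000032936, chr9:107935674-107949691) differed in splicing but not detectably in its level. Its level was 592, 477 and 542 CPM in the controls and 512, 468 and 473 CPM in the knockdown-labelled libraries, with overlap (log2 fold change -0.15, SE 0.09, adjusted p = 0.259). With a library left out this fold change ranged from -0.228 to -0.074. By the pattern of log2 CPM over the 6 libraries, the genes most like Camkv were Dab2ip, Inpp1 and Cfap20, at root mean square distances of 0.0358, 0.0389 and 0.0443. Intron 4 lies at chr9:107945865-107946078 (GRCm38, plus strand), between coding exons 4 and 5 of Camkv-201, and GENCODE lists a transcript that retains it, Camkv-202. The intron of 214 nt is printed because it is 1 of the 2 called events of the 10 genes. Capitals mark the GT and AG at its ends and, reading on from exon 4, the stop codon TGA that begins at base 2 of the intron.
Camkv intron 4: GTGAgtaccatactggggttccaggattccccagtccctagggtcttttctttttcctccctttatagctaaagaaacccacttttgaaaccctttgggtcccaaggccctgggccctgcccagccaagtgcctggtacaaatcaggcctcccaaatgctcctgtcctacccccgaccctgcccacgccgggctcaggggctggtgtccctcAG

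A transcript that keeps the intron thus meets an in-frame stop codon at the exon border. Among 3012 introns of the retained-intron events whose sequence could be read, intron 4 of Camkv was of middling length (percentile 43.1, median 269 nt) and fairly rich in G and C (57.9%, percentile 75.8). In the 20 nt window that ends 3 nt before its end, 55% of bases were pyrimidines, against a median of 70% (percentile 8.2). These are descriptions of the sequence and say nothing on which factor binds it.

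PSI of the retained form was 0.165, 0.177 and 0.158 in the controls and 0.299, 0.344 and 0.344 in the L-DL KD columns. All 3 L-DL KD values lay well above the controls, with means of 0.167 ± 0.0101 and 0.329 ± 0.0258 (SD, n = 3, difference 0.162). The counts behind them were 228, 192 and 202 for the retained and 577, 445 and 540 for the spliced form in the controls. In the L-DL KD columns they were 453, 491 and 398 for the retained and 531, 469 and 380 for the spliced form. The log2 odds of retention changed by 1.29 (SE 0.23, unadjusted p = 0.000103, adjusted p = 0.0449 from edgeR), which ranked 4 among 2294 retained introns tested. The adjusted p ranged from 0.0387 to 0.252 over the alternatives and was 0.167 under limma, while the log2 odds change stayed between 1.24 and 1.39 with any library left out. The study also reported this intron by RT-PCR and did not state how it was chosen. The difference can thus not be taken as independent of that choice.

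The 2 forms were also scaled to the summed junction counts of each library (junction CPM), with the retained form adjusted for its greater length. The retained form went from 14.9 ± 1.4 to 29.2 ± 1.6 junction CPM (SD, n = 3), a ratio of 1.95, without overlap. The spliced form went from 75.1 ± 10.8 to 59.8 ± 7.11 junction CPM, a ratio of 0.796, and its groups overlapped (two-sided exact permutation p = 0.2). The sum of both forms was close to level, at 90.1 ± 12.1 and 89 ± 7.57 junction CPM (exact permutation p = 0.9). The other 2 tested Camkv events, both on exon 3, had a PSI over 0.98 in every library and had differences of -0.00317 and -0.00763 between the group means.

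**Figure D5:**
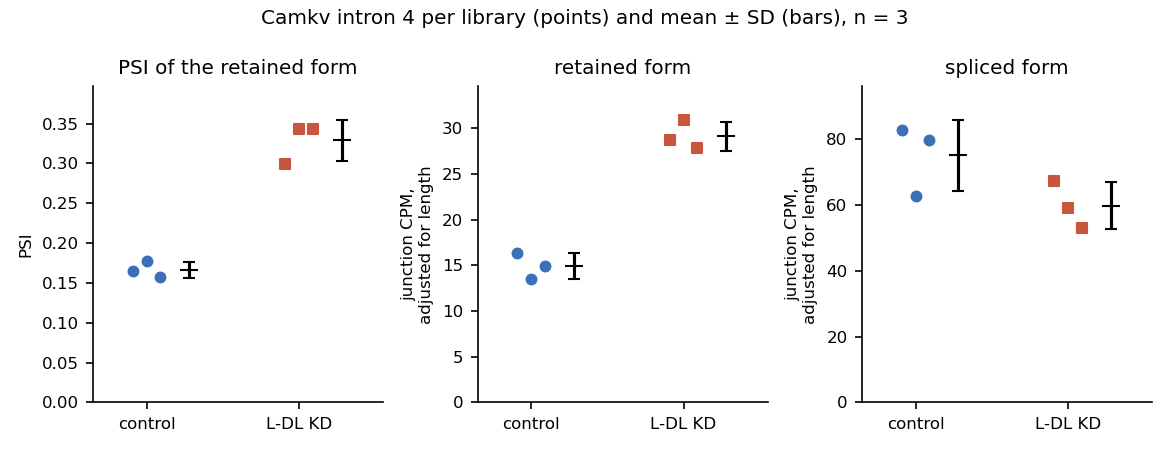
Intron 4 of Camkv in the 3 control columns (circles) and the 3 L-DL KD columns (squares), as PSI of the retained form (left) and as length-adjusted junction CPM of the retained and the spliced form (middle and right, y axes from 0), with mean ± SD. The retained form is higher in all 3 L-DL KD columns, 29.2 against 14.9 junction CPM on average, while the spliced form overlaps.

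Of the gene lists around these kinases, those of CaMKII partners at the synapse and of CaMK inhibitors and phosphatases were mostly lower. The counts of these lists stand against 15.0% of all genes tested that fell and 15.6% that rose. Of 12 partners and substrates of CaMKII at the synapse, 9 fell and 1 rose (median log2 fold change -0.44). The largest falls were those of Actn2, an actinin that binds CaMKII and NMDA receptors (log2 fold change -1.42, adjusted p = 0.00155), and of the postsynaptic scaffold Shank3 (-0.74, adjusted p = 0.00145). The Rac activator Tiam1 rose from 137 ± 4.9 to 237 ± 28.5 CPM (SD, n = 3, log2 fold change 0.79, adjusted p = 0.000873 from edgeR). Of 8 tested inhibitors and phosphatases 5 fell and none rose (median -0.42). They were led by the calcineurin subunits Ppp3r1 (-1.12, adjusted p = 0.000211) and Ppp3ca (-0.93, adjusted p = 0.000935). The ninth listed gene, Ppp3r2, had at most 6 counts in 5 libraries and 46 in control replicate 2 and was not tested.

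Of 6 tested genes for calmodulin and neuronal proteins that bind it, 2 fell, with the largest fall in the calmodulin gene Calm2 (log2 fold change -0.65, adjusted p = 0.00056). Without control replicate 1, 2 or 3 or L-DL KD replicate 2 only 1 gene of this list was called lower, and without L-DL KD replicate 1 it was 4. Pcp4, with at most 7 counts per library, was not tested. In the list of CREB and AMPK genes downstream of Camk4 and Camkk2, 2 of 12 rose, 2 fell and 8 were not called (median -0.11), in both directions near the share of all genes tested. The CREB coactivator Crtc1 (-0.68, adjusted p = 0.000917) and Stk11, another kinase of AMPK (-0.58, adjusted p = 0.00111), fell, while the AMPK subunit Prkab1 (0.54, adjusted p = 0.0338) and Crtc3 (0.41, adjusted p = 0.0307) rose. Without control replicate 1, 2 or 3 or L-DL KD replicate 3 none of this list was called higher, and without L-DL KD replicate 1 or 2 only 1 gene was. Of 15 other kinases of the family 3 rose and 4 fell (median 0.02), also not far from the share of all genes tested. Camk1, a further CaMKI enzyme and target of Camkk1 and Camkk2, rose from 39.5 ± 2.21 to 53.2 ± 3.92 CPM (SD, n = 3, log2 fold change 0.43, adjusted p = 0.0071 from edgeR), in contrast to Camk1d and Camk1g. Mylk3, a myosin light chain kinase, rose from 1.14 ± 0.295 to 14.7 ± 7.95 CPM (log2 fold change 3.68, adjusted p = 0.00121). Dclk3 (-0.97, adjusted p = 0.00258) and Pnck, the CaMKI beta enzyme (-0.55, adjusted p = 0.0165), fell most. The number of this list called lower was 1 without control replicate 1, and 2 without control replicate 2 or 3 or L-DL KD replicate 2.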

How the data were processed

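RNA-seq of 3 control and 3 L-DL KD hippocampal samples was analysed from the deposited tables. The authors sequenced poly(A)-selected RNA as 150 nt read pairs and deposited raw counts per Ensembl gene without normalization. Their processing notes name HISAT2 2.1.0, HTSeq 0.6.1 and Bowtie 1.1.2 with mm10, and strand use is not given in the sources used here. The authors also deposited rMATS tables with junction counts and form lengths for each library. The comparison columns of these tables (p-values, FDR and PSI differences) were not used as results.

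The splicing columns are named only as sample 1 and sample 2. They were assigned to L-DL KD and control from the definition of the PSI difference in the study's methods, which held as sample 1 minus sample 2 in 40961 of 40961 events. Over 6733 genes with at least 600 junction counts, the log ratio of junction sums so assigned had r = 0.947 with the log2 fold change of the gene counts (genes are not independent replicates).

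Gene counts (16052529 to 17913064 per library) were TMM-scaled. edgeR 4.0.16 tested them by quasi-likelihood in the 17621 genes that reached 10 counts in 3 libraries or more, with Benjamini-Hochberg adjustment and a threshold of 0.05. Junction counts (6760349 to 7939931 per library) were tested in edgeR with effects for library, inclusion and the change of inclusion, in the 18829 events whose mean count per library reached 20 in all and 1 for either form. PSI was the length-divided inclusion count over the sum of both forms. Levels relative to neuronal markers, shares and junction CPM were set against each other by an exact permutation test over samples (two-sided), which cannot go below p = 0.1. Coordinates and exons are those of GENCODE M21 (GRCm38), and sequences were read from its transcripts.

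On simulated data the expression test recovered 165 of 193 changed genes with 8 false calls among 17385 genes. The junction test recovered 61 of 182 changed events with 3 false calls among 17706 events. The odds change simulated there was larger than those of the called member events, so this rate does not hold for changes of their size. Alternatives were DESeq2 1.42.0, limma 3.58.1 with log2 ratios of both forms (pseudocount 0.5), library size scaling, other filters, a replicate block, PSI without lengths, other neuronal lists and leaving out each library. Software was R 4.3.3 and Python 3.11.15 with scipy 1.17.1 and pandas 2.3.3.

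Named were all members, the 2 largest rises and falls called in each pathway list, Hnrnpdl, the event of each member with the smallest p, the retained intron of Camkv, events with a PSI change of at least 0.1 without overlap, and the 3 genes most like Camkv. A gene that this rule would name is not reported here. The members and lists were chosen with earlier results of these data known. No label states that the samples came from separate mice, so p-values measure the spread between these samples. The study's blots and other experiments were not analysed here.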

Additional observations from a re-analysis of the deposited data

How the results depend on the processing

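The 6 members called lower stayed within 5 to 6 over all alternatives, and no log2 fold change of a member changed sign. With a library left out, 0 to 2 members were called higher. Leave-one-out counts called lower ranged from 1 to 5 for the other CaMK family kinases, from 1 to 4 for the calmodulin list, from 4 to 6 for inhibitors and phosphatases, from 8 to 10 for the CaMKII partners and from 2 to 3 for the CREB and AMPK list, where 0 to 1 were called higher. The log2 fold change of Hnrnpdl ranged from -0.13 to 0.15, with values of 0.00 (-0.001) without control replicate 3 and -0.127 without L-DL KD replicate 1. Over all genes, 3498 to 6477 genes were called with a library left out, against 5379 with all. Median member difference relative to neuronal markers was -0.374 with the median and 0.378 with the CA1 list. Without division by exon length, the share differences of Camk2d and Camk2g were 0.668 and 1.22 percentage points, with unchanged sign.

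limma called 0 member events, with a log2 odds change of 1.29 for Camkv intron 4, whose call was lost there and in 5 of 6 leave-one-out fits, in which the change ranged from 1.24 to 1.39 and 0 to 2 member events were called. Over all events limma called 0 and leave-one-out fits 0 to 52, against 48. The PSI change of intron 4 without effective lengths was 0.209. The log2 odds change of the Camk1d event ranged from -0.04 to 0.35 and was negative without the second control column. The causes were not tested.

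Whether replicate numbers mark pairs was not stated. Deviations of same-numbered libraries correlated at 0.0626, 0.157 and -0.14, and those of different-numbered libraries at -0.224 to 0.162. So few libraries cannot settle whether they are paired. With a replicate block, 4635 genes were called, 6 members were called lower and 1 gene of the calmodulin list. For the splicing events alone, no paired analysis was possible because their columns carry no replicate numbers. The 4 Camk2d events whose groups did not overlap had mean junction counts of 21 to 43.3 per library.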
